A study of Mus musculus with 384 samples.

Results

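Robo2, Synpo2, Tnfrsf11b and Gpnmb are 4 of the 46609 rows of a single-cell expression table from cells sorted from mouse back skin. They were chosen by their measured values, because each read higher in Sca-1-negative dKO cells than in Sca-1-negative cKO cells, with no set threshold. That difference is therefore a description here and supports nothing. All 4 rows were found, and each averaged at least 5 TPM over the plates, as did 7103 rows in all. TPM is a gene's part of all transcripts in a cell, corrected for transcript length and scaled to a fixed total.

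Each cell was sorted from back skin at postnatal day 70 into its own well and amplified by Smart-seq2, a full-length protocol without molecular identifiers. All mice carried Sox9-CreER, an inducible recombinase driven from the gene of a follicle stem cell factor, and a R26-YFP reporter. In dKO mice both alleles of NFIB and both alleles of NFIX were floxed (NFIBfl/fl and NFIXfl/fl). In cKO mice, which served as the comparison, both NFIX alleles but only 1 NFIB allele were floxed (NFIBfl/+ and NFIXfl/fl), so no group had both genes intact. Cells were sorted as DAPI-negative, integrin α6-positive and YFP-positive, and as negative or positive for Sca-1, the surface product of Ly6a. Of 384 cells, 6 had under 1000 genes and were dropped. The Sca-1-negative gate then held 93 and 61 dKO cells on plates 1 and 2. It held 71, 47 and 65 cKO cells on plates 1, 2 and 3. The Sca-1-positive gate held 19 dKO cells on plate 2 and 22 cKO cells on plate 3. No animal is named in the labels, so each genotype and gate was treated as 1 sample, no test was made, and no p-value is given. Values are given per plate, which mixes technical and animal differences.

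The 4 genes act at the cell surface, outside the cell and on the cytoskeleton. Robo2 encodes a transmembrane receptor for secreted Slit ligands, known for steering growing axons and migrating cells. Tnfrsf11b encodes osteoprotegerin, a secreted decoy receptor that binds RANKL (Tnfsf11) and TRAIL (Tnfsf10) and keeps them from their signalling receptors. Gpnmb encodes a transmembrane glycoprotein known from melanocytes, macrophages and osteoclasts, where MITF and related factors drive it. Synpo2 encodes an actin-binding protein of muscle Z-discs and stress fibres that binds filamins and α-actinin and works with the co-chaperone Bag3. Hair follicle stem cells rest in the bulge, where they carry Cd34 and little Sca-1, and the nuclear factor I (NFI) family of transcription factors is active in these cells.

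NFI proteins bind TTGGC, singly or as a pair facing each other across 5 bases, so the sequence before the starts of the 4 genes is shown for orientation. RefSeq promoters of the GRCm38.p6 build were on hand for 3 of the 4 genes, with 3 starts for Robo2 and 1 each for Synpo2 and Gpnmb. The 250 bases before a start are printed 5′ to 3′ on the gene's strand. Capitals mark TTGGC, searched as TTGGC and, for the other strand, as GCCAA.
Synpo2, chr3:123236150-123236399, minus strand: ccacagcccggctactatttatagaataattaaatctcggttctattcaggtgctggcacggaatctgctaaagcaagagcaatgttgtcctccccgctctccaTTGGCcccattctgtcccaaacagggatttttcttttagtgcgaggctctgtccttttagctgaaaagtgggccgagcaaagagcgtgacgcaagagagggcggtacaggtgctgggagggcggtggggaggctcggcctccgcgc
Robo2, farthest upstream start, chr16:75447294-75447543, minus strand: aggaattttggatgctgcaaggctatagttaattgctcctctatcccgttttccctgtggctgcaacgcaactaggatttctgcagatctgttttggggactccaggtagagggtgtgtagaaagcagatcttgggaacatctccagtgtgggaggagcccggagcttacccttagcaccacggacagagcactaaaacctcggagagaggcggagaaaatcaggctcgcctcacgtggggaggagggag
Robo2, middle start, chr16:75092771-75093020, minus strand: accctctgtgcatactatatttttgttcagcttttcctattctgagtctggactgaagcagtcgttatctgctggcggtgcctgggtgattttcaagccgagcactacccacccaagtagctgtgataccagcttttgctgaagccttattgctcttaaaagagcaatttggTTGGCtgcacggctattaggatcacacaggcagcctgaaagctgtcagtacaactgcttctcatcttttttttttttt
Robo2, start next to the GENCODE gene, chr16:74411826-74412075, minus strand: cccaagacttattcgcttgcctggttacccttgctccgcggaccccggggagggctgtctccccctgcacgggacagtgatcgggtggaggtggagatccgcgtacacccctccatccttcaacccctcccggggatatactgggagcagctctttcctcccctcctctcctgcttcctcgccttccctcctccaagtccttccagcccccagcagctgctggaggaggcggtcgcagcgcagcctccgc
Gpnmb, chr6:49036268-49036517, plus strand: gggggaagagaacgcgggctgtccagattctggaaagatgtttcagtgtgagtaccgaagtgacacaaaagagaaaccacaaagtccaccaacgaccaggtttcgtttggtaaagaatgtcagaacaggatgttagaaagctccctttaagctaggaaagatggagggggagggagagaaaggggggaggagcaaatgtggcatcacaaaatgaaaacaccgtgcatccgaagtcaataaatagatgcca

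TTGGC lay in 2 of the 5 windows, those of Synpo2 and of the middle Robo2 start, in both on the gene's own strand. The Gpnmb window and the other Robo2 windows held no copy on either strand. Among all 32851 mouse promoter windows of this length in the table, 41.5% held at least 1 copy, so these matches are a description and not sites. The paired form, which contains the short motif, lay in 0.0365% of all windows and in 0 of the 5.

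In the GENCODE annotation of GRCm38, Robo2 spans chr16:73891839-74411825 on the minus strand and Synpo2 chr3:123076519-123236149 on the minus strand. Tnfrsf11b spans chr15:54250619-54278484 on the minus strand and Gpnmb chr6:49036546-49070929 on the plus strand. The farthest and the middle Robo2 start lie upstream of the annotated gene. Within the Robo2 gene lie 7 other annotated genes and within Synpo2 4, none of which touches an exon of its host, and no gene overlaps Tnfrsf11b or Gpnmb. Smart-seq2 does not mark strand, so antisense reads could not be told apart.

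RNA of Ly6a followed the Sca-1 gate in part. It averaged 124.6 TPM in dKO and 68.4 TPM in cKO Sca-1-positive cells, and 19.7 to 47.6 TPM in Sca-1-negative cells by plate. Ly6a reached 10 TPM in 89.5% of dKO and 81.8% of cKO Sca-1-positive cells, and in 26.2% to 35.5% of Sca-1-negative cells by plate. Basal keratinocyte markers were found (at least 3 of 6 at 10 TPM) in 368 of 378 cells. In the Sca-1-negative gate the typical (median) cell had 5234 and 5227 genes at 1 TPM or above on the dKO plates and 4846, 5000 and 5079 on the cKO plates. The median was 4807 genes in dKO and 4842.5 in cKO Sca-1-positive cells. TPM keeps no read depth, so the number of genes stands in for it. Although the labels give every cell as male, dKO plate 1 and cKO plates 1 and 2 carried Xist (44.5 to 59.8 TPM), the RNA of the inactive X chromosome. RNA of the Y chromosome (Uty, Kdm5d, Eif2s3y and Ddx3y, summed) marked dKO plate 2 with 34.1 TPM and cKO plate 3 with 41.7 TPM. The plates of each genotype thus held cells of both sexes, and so of more than 1 animal, but the labels tie no plate to an animal and plates were not used as replicates. Genotypes were also compared within each kind of plate. No 2 cells had identical values.

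Robo2, the Slit receptor, was the most widely found of the 4 genes in Sca-1-negative cells. It averaged 21.7 and 36.8 TPM on the dKO plates, with medians of 3.28 and 13.9 TPM and highest cells of 218 and 312 TPM. It averaged 11.9, 8.76 and 9.53 TPM on the cKO plates, where the median cell was listed at 0 and the highest cells had 193, 82.9 and 123.6 TPM. Both dKO plates lay above all 3 cKO plates, and the cells of both genotypes overlapped over nearly the whole range. Cells counted as positive at 10 TPM made up 40.9% of dKO cells on plate 1 (exact 95% interval 30.8% to 51.5%) and 50.8% on plate 2 (37.7% to 63.9%). In cKO cells the shares were 21.1% (12.3% to 32.4%), 25.5% (13.9% to 40.3%) and 18.5% (9.92% to 30.03%). These intervals, here and below, cover counting error only. Robo2 was listed at 0 in 36.6% and 36.1% of dKO cells by plate, and in 71.8%, 65.96% and 73.8% of cKO cells.

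Tnfrsf11b, the gene of the decoy receptor osteoprotegerin, averaged 22.9 and 19.9 TPM on the dKO plates, with medians of 2.68 and 1.48 TPM and highest cells of 191 and 113.7 TPM. On the cKO plates it averaged 6.53, 3.44 and 5.14 TPM, with medians of 0 and highest cells of 72.5, 55.2 and 128.8 TPM. The plates of both genotypes were apart here as well. Positive cells made up 38.7% (28.8% to 49.4%) and 37.7% (25.6% to 51.04%) of dKO cells. In cKO cells they made up 16.9% (9.05% to 27.7%), 10.6% (3.55% to 23.1%) and 10.8% (4.44% to 20.9%). The dKO shares were close to each other, and the intervals of dKO plate 2 and cKO plate 1 overlapped.

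Gpnmb, the membrane glycoprotein gene, was the rarest of the 4 in this gate and the most unevenly spread. It averaged 14.1 and 23.2 TPM on the dKO plates and 2.56, 3.15 and 5.73 TPM on the cKO plates, with a median of 0 on every plate. The highest cells had 236 and 441 TPM on the dKO plates and 68.5, 67.1 and 259 TPM on the cKO plates. The 5% of cells with the most Gpnmb, rounded up, held 56.5% and 65.7% of its summed TPM on the dKO plates and 97.9%, 97.1% and 95.2% on the cKO plates. The means of Gpnmb thus rest on few cells. Positive cells made up 13.98% (7.66% to 22.7%) and 18.03% (9.36% to 29.98%) of dKO cells, against 5.63% (1.56% to 13.8%), 6.38% (1.34% to 17.5%) and 6.15% (1.70% to 15.01%) of cKO cells. Every interval of a dKO plate overlapped every interval of a cKO plate, although the dKO shares were the higher ones.

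Synpo2, the actin-binding protein gene, was found in a larger share of cells on both dKO plates than on any cKO plate. It averaged 28.1 and 21.7 TPM on the dKO plates and 4.44, 3.60 and 5.39 TPM on the cKO plates, again with a median of 0 on every plate. The highest cells had 389 and 201 TPM on the dKO plates and 80.6, 74.1 and 97.4 TPM on the cKO plates. Of the dKO cells 8 and 4 by plate exceeded 100 TPM, and of the cKO cells 0 on each plate. Positive cells made up 30.1% (21.03% to 40.5%) and 34.4% (22.7% to 47.7%) of dKO cells. In cKO cells they made up 8.45% (3.17% to 17.5%), 6.38% (1.34% to 17.5%) and 10.8% (4.44% to 20.9%). Synpo2 was the 1 gene of the 4 whose dKO intervals lay wholly above its cKO intervals.

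**Figure D1:**
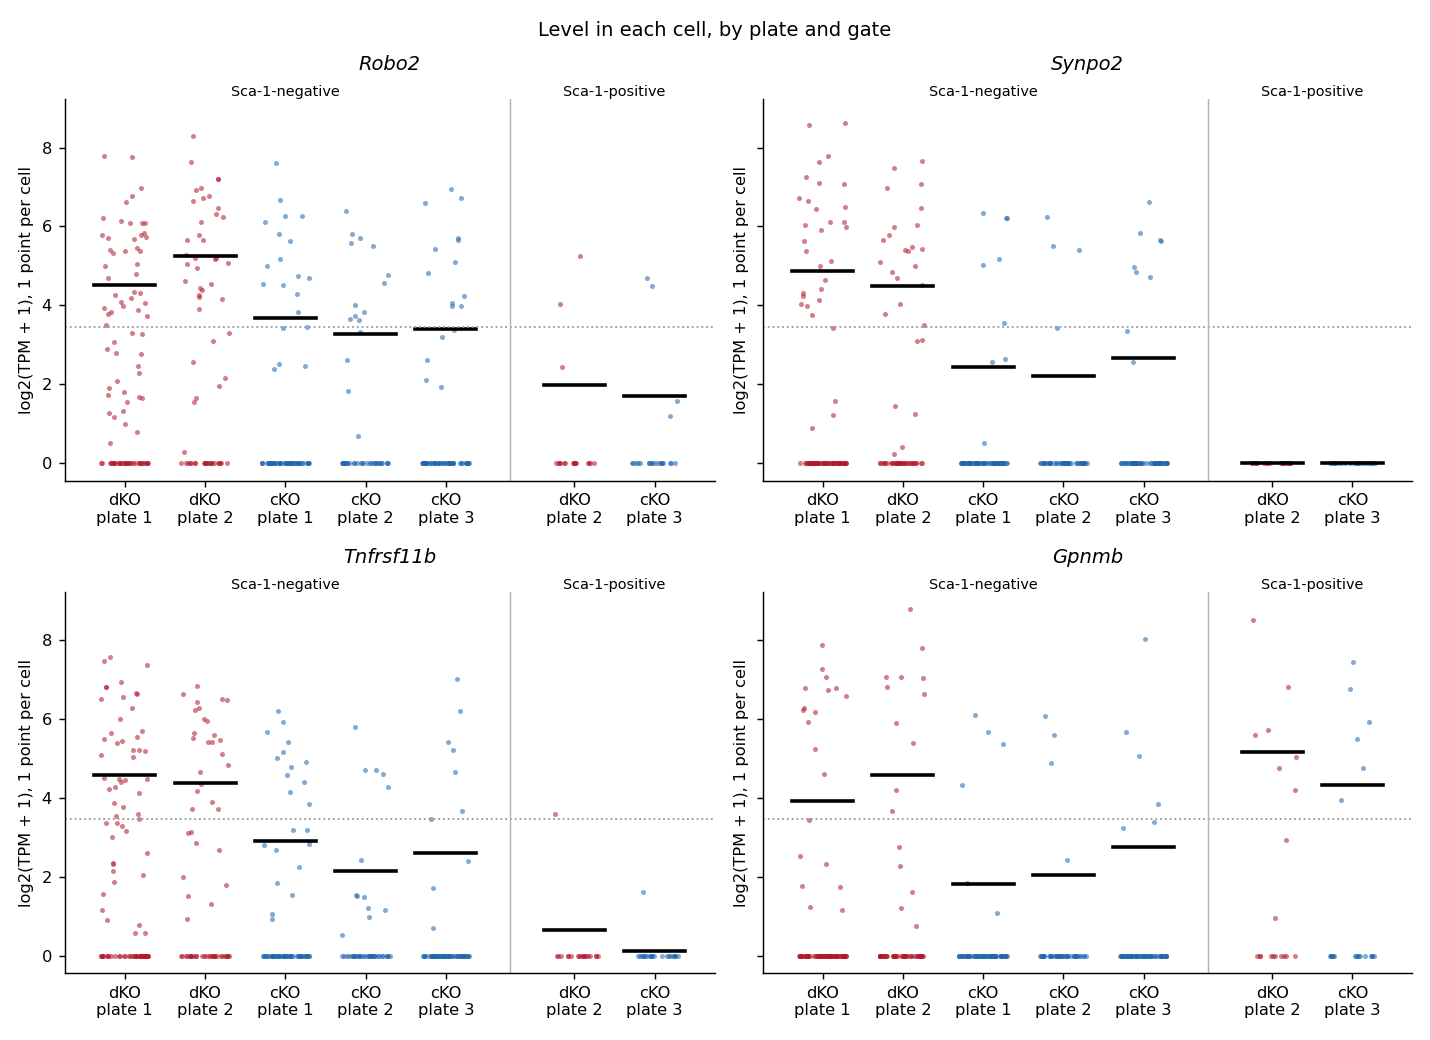
Level of each gene in every cell kept, as log2(TPM + 1) on the vertical axis, by plate and gate, with dKO in red and cKO in blue. Thick bars mark log2(mean TPM + 1) and the dotted line 10 TPM; Synpo2 is listed at 0 in all 41 Sca-1-positive cells, while Gpnmb reaches 366 TPM there.

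With plates weighted equally and a pseudocount of 1 TPM, dKO over cKO ratios in Sca-1-negative cells were 2.74 for Robo2, 4.73 for Synpo2, 3.72 for Tnfrsf11b and 4.08 for Gpnmb. On the log2 scale these were 1.45, 2.24, 1.89 and 2.03, where the median of all 7103 measured genes was -0.12. A difference of 2-fold or more toward dKO, with no overlap of plate means, was found for 0.676% of these genes. The 4 genes were chosen on this contrast, so nothing is read from their place in it, which was rank 32 for Robo2, 18 for Synpo2, 23 for Tnfrsf11b and 21 for Gpnmb. The order of the 4 genes depends on the measure, and as a difference of mean log2(TPM + 1) the values were 1.58 for Robo2, 1.41 for Synpo2, 1.57 for Tnfrsf11b and 0.78 for Gpnmb.

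The ratios can be split into how many cells were positive and how much a positive cell held. The share of positive cells was 2.11 times as high in dKO as in cKO cells for Robo2, 3.78 times for Synpo2, 2.99 times for Tnfrsf11b and 2.64 times for Gpnmb. The mean level in positive cells differed less, with dKO over cKO ratios of 1.35 for Robo2, 1.53 for Synpo2, 1.46 for Tnfrsf11b and 1.87 for Gpnmb. For Gpnmb the positive dKO cells averaged 113.1 TPM and the positive cKO cells 60.3 TPM. For Robo2 they averaged 61.3 TPM in dKO and 45.3 TPM in cKO, and the plates overlapped. In cells with few reads a low level can be missed, so share and level are not independent readings.

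Within the kinds of plate, every gene read higher in dKO, in the same cells on which the genes were chosen, so the direction supports nothing. On the Xist plates the log2 difference was 1.01 for Robo2, 2.54 for Synpo2, 2.00 for Tnfrsf11b and 1.97 for Gpnmb. On the plates with Y-linked RNA it was 1.85 for Robo2, 1.83 for Synpo2, 1.77 for Tnfrsf11b and 1.84 for Gpnmb. Robo2 thus differed more on the Y plates and Synpo2 more on the Xist plates, while Tnfrsf11b and Gpnmb were close in both. The 18S ribosomal RNA row Rn18s-rs5 took 61.5% and 56.03% of the TPM on the dKO plates and 56.3%, 56.8% and 55.3% on the cKO plates. With that row, the other 4 most abundant rows and the spike-ins removed and the rest rescaled, the log2 differences were 1.61 for Robo2, 2.46 for Synpo2, 2.22 for Tnfrsf11b and 2.44 for Gpnmb.

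**Figure D2:**
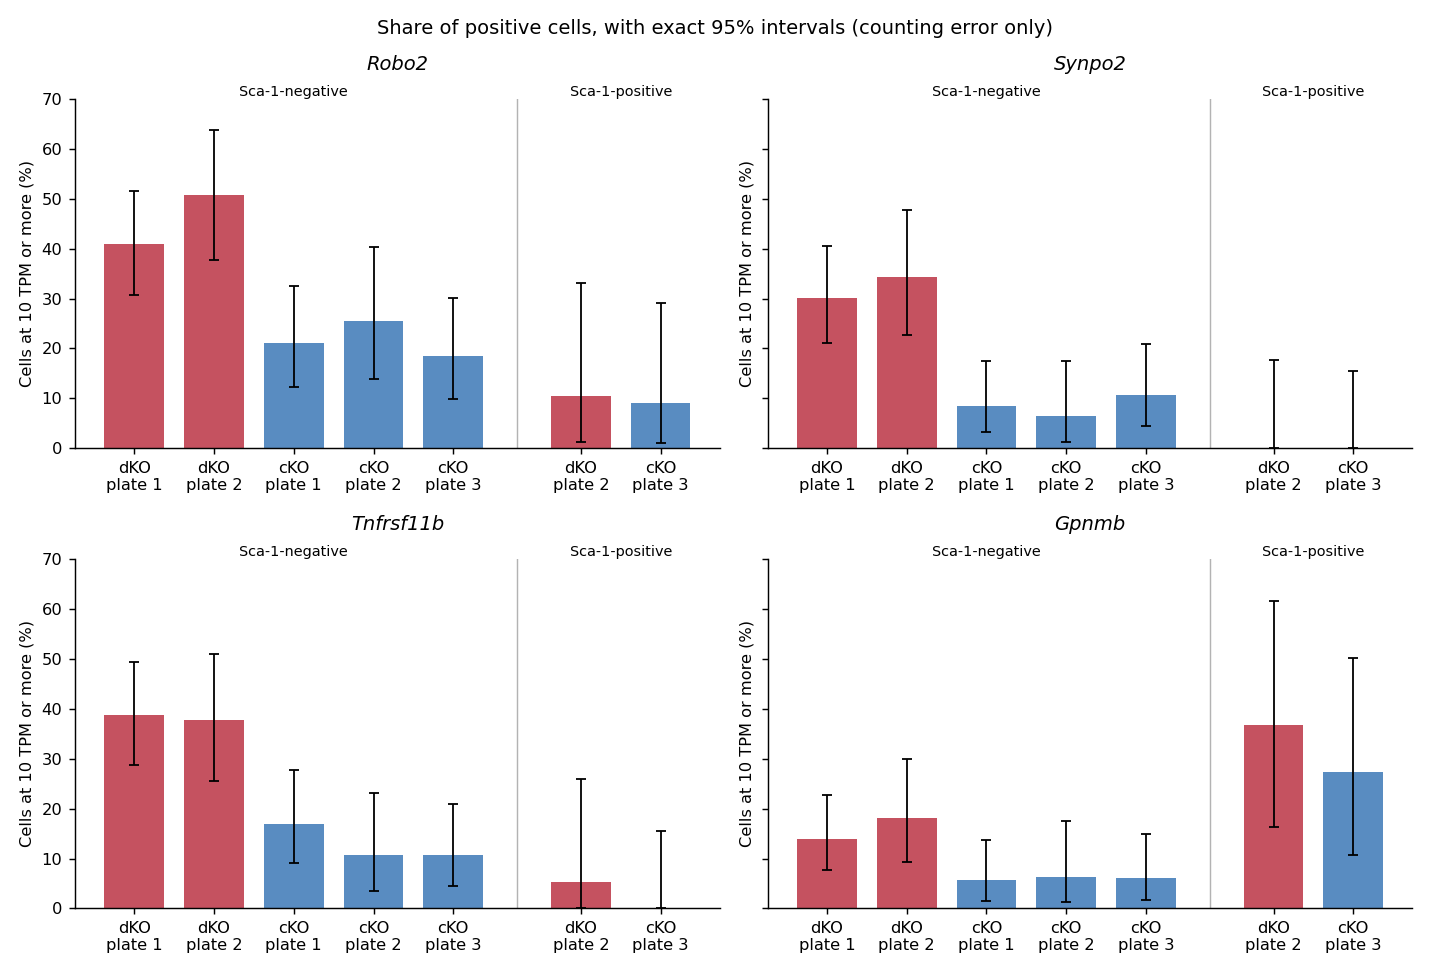
Share of cells at 10 TPM or more, in percent, for each gene by plate and gate, with dKO in red and cKO in blue and exact 95% binomial intervals as bars. In the Sca-1-negative gate the dKO plates reach 50.8% for Robo2, and no cKO plate exceeds 25.5% for any gene; in the Sca-1-positive gate Gpnmb has the highest shares, 36.8% in dKO and 27.3% in cKO.

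Sca-1-positive cells, which did not enter the choice of the genes, parted Gpnmb from the other 3. Gpnmb averaged 34.7 TPM in the 19 dKO cells and 19.3 TPM in the 22 cKO cells of this gate. It was positive in 7 of 19 dKO cells, 36.8% (16.3% to 61.6%), and in 6 of 22 cKO cells, 27.3% (10.7% to 50.2%). Robo2 averaged 2.98 TPM in dKO and 2.27 TPM in cKO cells, with 2 positive cells in each. Tnfrsf11b averaged 0.589 TPM in dKO, all of it in 1 cell at 11.2 TPM, and 0.095 TPM in cKO, all of it in 1 cell at 2.09 TPM. Synpo2 was listed at 0 in all 41 cells, which allows a share of up to 15.8% in dKO and 13.6% in cKO. Between genotypes in this gate, 9.62% of 7008 measured genes stood at least 2-fold higher in dKO, and none of the 4 did. Gpnmb was 1.76-fold higher in dKO than in cKO, with intervals of its shares that overlapped widely, and the other 3 were too low to be measured.

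Both gates lay on the same plate in each genotype, so the gates were compared within plates, with the pseudocount of 1 TPM in every fold. The Sca-1-negative dKO cells are those in which the genes were chosen as high, so the folds by which a gene was lower in Sca-1-positive cells on dKO plate 2 share values with that choice, which can enlarge them, and are a description. On dKO plate 2 Gpnmb averaged 34.7 TPM in Sca-1-positive and 23.2 TPM in Sca-1-negative cells, a 1.48-fold difference. On cKO plate 3 it averaged 19.3 TPM in Sca-1-positive and 5.73 TPM in Sca-1-negative cells, a 3.02-fold difference. Of the measured genes 6.93% on dKO plate 2 and 7.2% on cKO plate 3 were at least 2-fold higher in Sca-1-positive cells. Robo2 was 9.50-fold lower in Sca-1-positive cells on dKO plate 2 (2.98 against 36.8 TPM) and 3.22-fold lower on cKO plate 3 (2.27 against 9.53 TPM). Tnfrsf11b was 13.2-fold lower on dKO plate 2 (0.589 against 19.9 TPM) and 5.61-fold lower on cKO plate 3 (0.095 against 5.14 TPM). Synpo2 stood at 0 in Sca-1-positive cells against 21.7 TPM in Sca-1-negative cells on dKO plate 2, and at 0 against 5.39 TPM on cKO plate 3, and no fold is given. Differences of at least 2-fold in this direction were common, at 25.6% of measured genes on dKO plate 2 and 17.8% on cKO plate 3. Gpnmb thus went the other way from the other 3 genes on both plates. Whether the size of any gate difference depends on genotype was not tested.

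Cd34, the bulge surface marker, was used to split the Sca-1-negative cells at 10 TPM. Cd34-positive cells numbered 23 and 16 on the dKO plates and 23, 13 and 16 on the cKO plates, and no Sca-1-positive cell reached the threshold. A Cd34-negative cell can be one in which the RNA was missed. The median number of genes was 4963 and 5379 in Cd34-positive and 5386 and 5169 in Cd34-negative dKO cells by plate. It was 4668, 4767 and 4640 in Cd34-positive and 5026, 5055.5 and 5133 in Cd34-negative cKO cells.

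Gpnmb averaged higher in Cd34-positive than in Cd34-negative cells on all 5 plates. It averaged 42.8 and 60.4 TPM in Cd34-positive and 4.70 and 9.92 TPM in Cd34-negative dKO cells by plate. In cKO it averaged 7.86, 9.16 and 16.8 TPM in Cd34-positive and 0.023, 0.849 and 2.13 TPM in Cd34-negative cells. Log2 differences were 2.94 and 2.49 on the dKO plates and 3.11, 2.46 and 2.51 on the cKO plates. Positive cells made up 15 of 39 Cd34-positive dKO cells, 38.5% (23.4% to 55.4%), and 7.83% (3.64% to 14.3%) of Cd34-negative ones, where they numbered 9. In cKO they made up 7 of 52 Cd34-positive cells, 13.5% (5.59% to 25.8%), and 3.05% (0.838% to 7.63%) of Cd34-negative ones, where they numbered 4. On cKO plate 3 the mean rests on 1 Cd34-positive cell at 259 TPM, and the shares there were 6.25% of Cd34-positive and 6.12% of Cd34-negative cells. At least 2-fold higher levels in Cd34-positive cells were found for 10.6% of 7920 measured genes in dKO and for 14.1% of 8386 in cKO.

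Tnfrsf11b was also found more often in Cd34-positive cells. The shares in dKO were 61.5% (44.6% to 76.6%) of Cd34-positive and 30.4% (22.2% to 39.7%) of Cd34-negative cells. In cKO they were 23.1% (12.53% to 36.8%) of Cd34-positive and 9.16% (4.82% to 15.5%) of Cd34-negative cells, and cKO plate 2 went the other way with 1 of 13 Cd34-positive and 4 of 34 Cd34-negative cells. The mean level was higher in Cd34-positive cells on all 5 plates, with log2 differences of 0.51 and 1.30 in dKO and of 1.60, 0.72 and 0.84 in cKO.

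Synpo2 split its share and its level by Cd34. It was found in 56.4% (39.6% to 72.2%) of Cd34-positive and 23.5% (16.1% to 32.3%) of Cd34-negative dKO cells, yet the mean was 25.2 TPM in Cd34-positive and 24.9 TPM in Cd34-negative dKO cells. On dKO plate 1 it averaged 32.9 TPM in Cd34-positive and 26.6 TPM in Cd34-negative cells, and on dKO plate 2 it averaged 17.5 TPM in Cd34-positive and 23.1 TPM in Cd34-negative cells. The highest Cd34-negative cells had 389 and 201 TPM by plate, against 105.4 and 64.8 TPM for the highest Cd34-positive cells. With the highest 5% of cells left out the log2 difference in dKO was 0.80, with the abundant rows removed 1.11, and with Cd34 split at 1 TPM 1.86, against 0.021 as defined. In cKO the share was 21.2% (11.1% to 34.7%) of Cd34-positive and 3.82% (1.25% to 8.68%) of Cd34-negative cells. There the mean also followed, at 10.8 TPM in Cd34-positive and 2.14 TPM in Cd34-negative cells.

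Robo2 averaged lower in Cd34-positive cells on both dKO plates, and in cKO its direction differed between plates. In dKO it was positive in 35.9% (21.2% to 52.8%) of Cd34-positive and 47.8% (38.4% to 57.3%) of Cd34-negative cells. It averaged 16.1 TPM in Cd34-positive and 23.6 TPM in Cd34-negative cells on dKO plate 1, and 22.02 TPM in Cd34-positive and 42.1 TPM in Cd34-negative cells on dKO plate 2. With the abundant rows removed the log2 difference in dKO was -0.011 in place of -0.76. In cKO the shares were 23.1% (12.53% to 36.8%) of Cd34-positive and 20.6% (14.04% to 28.6%) of Cd34-negative cells. The log2 differences of the cKO plates were -0.40, 0.26 and 1.42, and the value over all 3 was 0.44. Without cKO plate 3 it was -0.099, without cKO plate 1 0.90, and with the abundant rows removed 1.06.

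**Figure D3:**
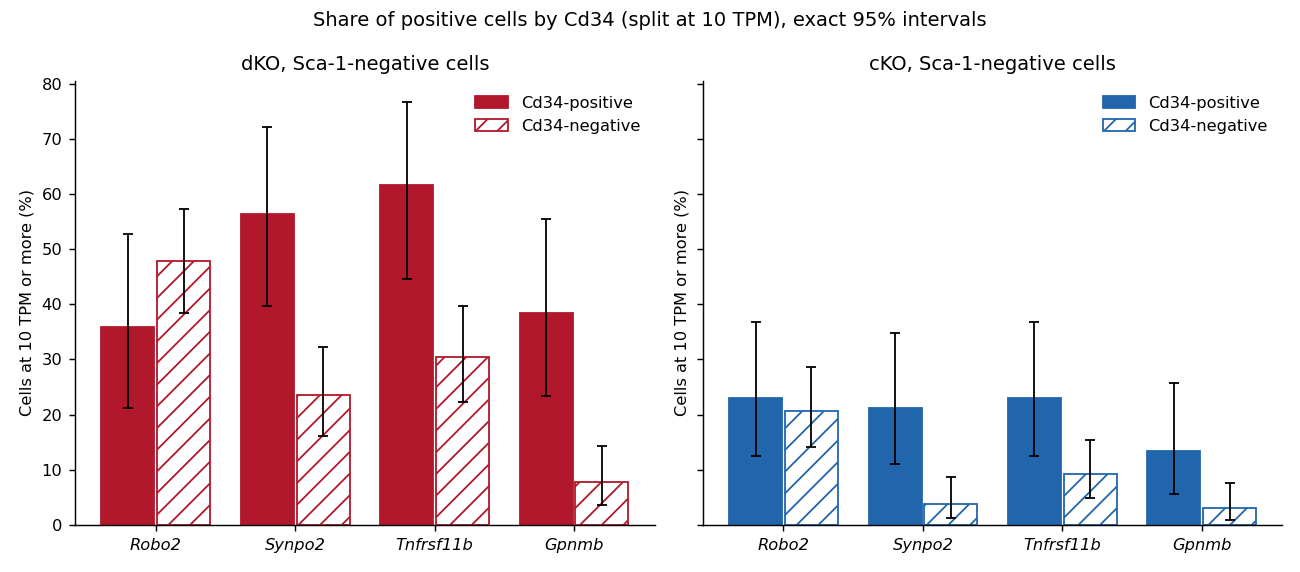
Share of Sca-1-negative cells at 10 TPM or more, in percent, for each gene in Cd34-positive (filled) and Cd34-negative (hatched) cells, with dKO at left and cKO at right; bars are exact 95% binomial intervals over the pooled cells of a genotype. Synpo2, Tnfrsf11b and Gpnmb are higher in Cd34-positive cells of both genotypes, and Robo2 in dKO stands at 35.9% against 47.8%.

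Krt79, a keratin of the upper follicle, marked a class of Cd34-negative cells in which Synpo2 and Gpnmb were rarely or never found. Among the 28 Krt79-positive, Cd34-negative dKO cells Robo2 was positive in 12, or 42.9% (24.5% to 62.8%). In these cells Tnfrsf11b was positive in 3, Synpo2 in 1 and Gpnmb in 0, which allows a share of up to 10.7%. Among the 35 such cKO cells Robo2 was positive in 6, Tnfrsf11b in 4, and Synpo2 and Gpnmb in 0 each, which allows up to 8.57%. In cells without Cd34 or Krt79, Gpnmb was positive in 9 of 87 dKO and 4 of 96 cKO cells. In the same cells Robo2 was positive in 49.4% (38.5% to 60.4%) in dKO and 21.9% (14.1% to 31.5%) in cKO, shares whose intervals overlap those of the Krt79-positive cells. Of the 35 Gpnmb-positive cells of this gate, 15 dKO and 7 cKO cells were thus Cd34-positive, and 9 dKO and 4 cKO cells had neither marker.

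The genotypes were also set side by side within each Cd34 class, which describes the contrast the genes were chosen on. In Cd34-negative cells the dKO over cKO ratios were 3.31 for Robo2 (dKO 32.8 and cKO 9.22 TPM), 8.24 for Synpo2 (dKO 24.9 and cKO 2.14 TPM), 4.11 for Tnfrsf11b (dKO 17.4 and cKO 3.48 TPM) and 4.16 for Gpnmb (dKO 7.31 and cKO 1.0 TPM). In Cd34-positive cells they were 1.44 for Robo2 (dKO 19.04 and cKO 12.9 TPM), 2.23 for Synpo2 (dKO 25.2 and cKO 10.8 TPM), 3.50 for Tnfrsf11b (dKO 33.03 and cKO 8.73 TPM) and 4.29 for Gpnmb (dKO 51.6 and cKO 11.3 TPM). As defined, Robo2 and Synpo2 thus differed more between genotypes in Cd34-negative cells, and Tnfrsf11b and Gpnmb about equally in both classes. For Synpo2 this depends on the setting. Its log2 difference by Cd34 was 1.86 in dKO and 1.46 in cKO with Cd34 split at 1 TPM. As a difference of mean log2 it was 1.40 in dKO and 1.04 in cKO. Under both settings Synpo2 differed more between genotypes in Cd34-positive cells. Cd34 itself averaged 37.3 TPM in dKO and 75.2 TPM in cKO, so 1 threshold may class cells unlike. For Robo2 in Cd34-positive cells the plates of both genotypes overlapped, and in each other case they did not. How often this holds over all genes within a Cd34 class was not counted, so nothing is read from it. The difference between the classes was not tested.

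More than 1 of the 4 genes was found in many dKO cells and in few cKO cells. Each gene was chosen as higher in dKO, so this difference between genotypes shares values with that choice and is a description. At least 2 of them were positive in 35.5% (25.8% to 46.1%) and 44.3% (31.5% to 57.6%) of dKO cells by plate. In cKO cells the shares were 11.3% (4.99% to 21%), 6.38% (1.34% to 17.5%) and 7.69% (2.54% to 17.05%). These numbers were close to what the separate shares of the genes give if the genes are independent within a plate. The observed 33 and 27 dKO cells stand beside 33.9 and 27.01 expected ones, and 8, 3 and 5 cKO cells beside 5.74, 3.19 and 4.27. Cells with none of the 4 numbered 27 and 12 on the dKO plates, where 20.3 and 10.04 were expected. All 4 were positive in 2 cells, 1 on each dKO plate, and both were Cd34-negative at 10 TPM. Among Cd34-positive cells, at least 2 genes were positive in 64.1% (47.2% to 78.8%) in dKO and 21.2% (11.1% to 34.7%) in cKO. Among Cd34-negative cells the shares were 30.4% (22.2% to 39.7%) in dKO and 3.82% (1.25% to 8.68%) in cKO. On the Sca-1-negative plates, cells with at least 2 of the genes did not have more genes detected, with medians of 5083 and 4994 in dKO cells with at least 2, against 5578 and 5321.5 in dKO cells with none. In cKO the medians were 4688.5, 4718 and 4917 in cells with at least 2, against 4995, 4985 and 5079 in cells with none.

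Of the 6 pairs, Robo2 with Gpnmb was the 1 found together less often than its shares give in both genotypes. In dKO both were positive in 5 cells, where 10.9 were expected, a ratio of 0.459 (0.150 to 1.05), with 0.565 on plate 1 and 0.358 on plate 2. In cKO both were positive in 0 cells, where 2.35 were expected. Gpnmb was positive in 7.25% of Robo2-positive and 22.4% of Robo2-negative dKO cells. The interval of the dKO ratio includes 1. It covers counting error in the number of shared cells, with the expected number held fixed, and is not a test of independence.

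Synpo2 with Robo2 and Synpo2 with Tnfrsf11b leaned the other way. Robo2 and Synpo2 were both positive in 30 dKO cells where 22.1 were expected, a ratio of 1.36 (0.943 to 1.85), and in 7 cKO cells where 3.33 were expected, 2.10 (0.854 to 4.25). Synpo2 and Tnfrsf11b were both positive in 27 dKO cells where 18.8 were expected, 1.44 (0.976 to 2.01), and in 6 cKO cells where 2.09 were expected, 2.88 (1.06 to 6.14). The last ratio rests on cKO plate 3, which held 4 of the 6 cells at a ratio of 5.31, and without that plate it was 1.5. The Robo2 and Synpo2 ratio in dKO was 1.14 with cells counted as positive at 1 TPM and 3.05 at 50 TPM. The remaining ratios in dKO were 1.17 for Robo2 and Tnfrsf11b, 1.43 for Synpo2 and Gpnmb, and 1.09 for Tnfrsf11b and Gpnmb. In cKO these pairs shared 6, 1 and 0 cells. Robo2 and Tnfrsf11b stood at 1.43 on dKO plate 1 and 0.856 on dKO plate 2, and Tnfrsf11b and Gpnmb at 0.795 on dKO plate 1 and 1.45 on dKO plate 2, so the direction of both pairs differed between plates.

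**Figure D4:**
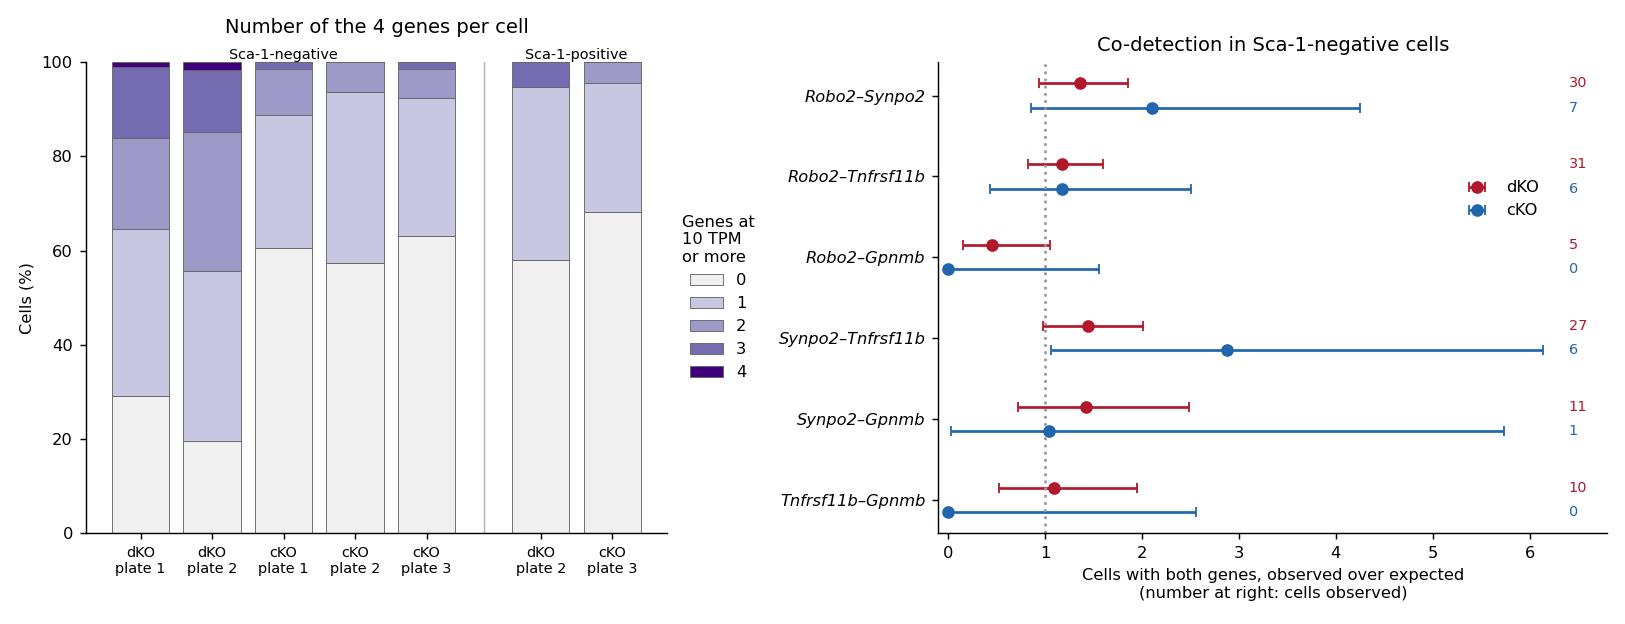
Left, the percentage of cells by plate and gate in which 0, 1, 2, 3 or 4 of the genes reached 10 TPM; right, for each pair in Sca-1-negative cells, the number of cells with both genes over the number expected from their shares on each plate, with exact 95% binomial intervals, dKO in red above cKO in blue. Robo2 with Gpnmb lies lowest in dKO, at 0.459, and the cKO points rest on 0 to 7 cells each.

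Spearman correlations over the 337 Sca-1-negative cells, with ranks taken within plates, gave a partly different order of the pairs. Synpo2 and Gpnmb, at a ratio of 1.43 in dKO, correlated at 0.098, with 0.173 in dKO and -0.048 in cKO. Robo2 and Tnfrsf11b correlated at 0.140, and Tnfrsf11b and Gpnmb at 0.033. Cells of a plate share their preparation, cells differ in depth, and many values are 0. Synpo2 correlated at 0.306 with Tnfrsf11b, 0.300 with Robo2 and 0.303 with Cd34. Gpnmb correlated at 0.298 with Cd34 and at -0.167 with Robo2, where it was below 0 on each plate (-0.308 to -0.088). Tnfrsf11b correlated at 0.263 with Cd34, and Robo2 at -0.046.

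Gpnmb is a gene of pigment cells and macrophages and Synpo2 one of muscle, so markers of those cell types were counted in the same cells. Of the melanocyte markers, Pmel, Tyr and Mlana reached 10 TPM in 0 of 378 cells. The immune markers Ptprc, Csf1r, Adgre1 and Lyz2, the muscle markers Acta2, Myh11 and Des, and the fibroblast markers Dcn and Lum likewise had 0 such cells. Other members of these lists were found. Of the other smooth muscle and pericyte markers, Cspg4, the gene of the NG2 proteoglycan, was the most widely found. In Sca-1-negative dKO cells it reached 10 TPM in 77.6% of Synpo2-positive and 36.2% of Synpo2-negative cells. In cKO it did so in 15 of 16 Synpo2-positive cells and in 43.7% of Synpo2-negative ones. Tagln reached 10 TPM in 3 cells, Cnn1 in 1 and Rgs5 in 1. Of the other fibroblast markers, Col1a1 reached 10 TPM in 39 cells, Vim in 11 and Col1a2 in 8. Of the other immune markers, Cd74, the invariant chain gene, reached 10 TPM in 41 cells, H2-Aa in 14 and Tyrobp in 5. Dct did in 2 cells, Tyrp1 in 1, C1qa in 1, Pdgfra in 2 and Cd68 in 17, and of these last 5 only Cd68 was found in a Gpnmb-positive cell, in 3 of 48. None of the 48 Gpnmb-positive and none of the 65 Synpo2-positive cells held at least 3 of the 13 melanocyte, 13 macrophage and immune, 10 fibroblast or 9 smooth muscle and pericyte markers. The summed level of the melanocyte list was 16.1 and 23.9 TPM on the dKO plates and 33.8, 27.6 and 14.98 TPM on the cKO plates. That of the immune list was 9.62 and 7.497 TPM in dKO against 37.7, 30.2 and 10.6 TPM in cKO. That of the fibroblast list was 13.02 and 25.5 TPM in dKO against 8.10, 4.05 and 4.52 TPM in cKO, of which Col1a1 averaged 17.8 TPM in dKO and 2.43 TPM in cKO. The part of Col1a1 in the 4 genes' values was not tested. The smooth muscle list summed to 14.1 and 17.6 TPM in dKO against 14.6, 21.6 and 16.8 TPM in cKO. Cells with at least 3 markers of 1 list were rare among all 378. They numbered 4 for the immune list, 1 for a Schwann and nerve list, and 0 for the melanocyte, fibroblast, smooth muscle and endothelial lists. Without these cells, the log2 differences between genotypes were 1.45 for Robo2, 2.24 for Synpo2, 1.90 for Tnfrsf11b and 2.03 for Gpnmb. So few cells could hardly change these values, so nothing is read from their removal.

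At least 1 melanocyte marker was found in 21 of 35 Gpnmb-positive Sca-1-negative cells and in 96 of 302 Gpnmb-negative ones, 31.8%. In all 21 it was Mitf, the transcription factor that drives Gpnmb in pigment cells and osteoclasts. Mitf was positive in 58.3% (36.6% to 77.9%) of Gpnmb-positive dKO cells and in 39 of 130 Gpnmb-negative ones (22.3% to 38.7%). In cKO it was positive in 63.6% (30.8% to 89.1%) of Gpnmb-positive and 27.9% (21.3% to 35.2%) of Gpnmb-negative cells. Mitf itself averaged 15.6 and 21.6 TPM on the dKO plates and 32.2, 26.5 and 11.4 TPM on the cKO plates, which overlapped. Mitf was also found more often in Synpo2-positive than in Synpo2-negative cells, at 48.98% against 27.6% in dKO and 56.3% against 27.5% in cKO. For Tnfrsf11b-positive against Tnfrsf11b-negative cells the shares were 42.4% against 29.5% in dKO and 62.5% against 25.2% in cKO. For Robo2 they were 31.9% against 36.5% in dKO and 25.6% against 31.3% in cKO. In the Sca-1-positive gate 0 of 13 Gpnmb-positive cells had a melanocyte marker. Mitf was singled out after its values were seen, and its part in the values of the 4 genes was not tested.

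The genes whose pattern over the 337 Sca-1-negative cells was most like each member were sought among 7371 genes positive in at least 10% of them. With the plate mean of log2(TPM + 1) subtracted before ranking, the 3 highest for Robo2 were Tgfb2 (rho 0.58), which encodes a TGF-β ligand, Efnb2 (0.45), which encodes an ephrin, and Lmcd1 (0.41). Those for Synpo2 were Wif1 (0.62), which encodes a secreted WNT inhibitor, Ldlrad3 and Pcdh20 (0.59 each). Those for Tnfrsf11b were Igfbp7 (0.42), Chat (0.40) and Egfl6 (0.39). Those for Gpnmb were Scrg1 (0.66), Sap30 (0.52) and Ldlrad3 (0.51). Subtracting means shifts the many zeros of a plate together, so ranks within plates were also used, a measure chosen after these values were seen.

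With ranks within plates the order changed least for Robo2 and most for Gpnmb. Robo2 kept Tgfb2 (0.589) and Efnb2 (0.445), followed by Pthlh (0.414), which encodes parathyroid hormone-related protein. For Tgfb2 the correlation was 0.633 in dKO and 0.530 in cKO cells, and 0.370 to 0.678 by plate. Efnb2 itself averaged 43.5 TPM in dKO and 47.5 TPM in cKO cells, a ratio of 0.918. Synpo2 kept Wif1 (0.605), followed by Gli1 (0.562), a transcription factor of hedgehog signalling, and Sema3e (0.553), which encodes a semaphorin. For Wif1 the correlation was 0.637 in dKO and 0.538 in cKO cells, but -0.064 on 1 plate. Tnfrsf11b was closest to Ppap2a (0.367), Cspg4 (0.363) and Egfl6 (0.362), values close to each other. Gpnmb was closest to Shisa2 (0.40), Col1a1 (0.391) and Dkk3 (0.388), while Scrg1 and Sap30 stood at 0.339 and 0.235. The Gpnmb values came mainly from dKO cells, with 0.561 in dKO and 0.214 in cKO for Shisa2, and 0.509 in dKO and 0.160 in cKO for Col1a1.

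Few genes of the pathways around the 4 genes stood apart between genotypes, as was so for all measured genes, so the small counts mark nothing about these pathways. In these lists a gene was counted where it stood at least 1.5-fold apart between genotypes with no overlap of plate means, which 2.03% of all measured genes did upward in dKO and 6.53% downward. Of 19 genes around Slit and Robo, 8 were measured, 0 were higher and 1 was lower in dKO, with a median log2 difference of -0.18 against -0.12 over all genes. The lower one was Srgap2, a GTPase-activating protein that binds Robo receptors, at 9.52 TPM in dKO and 15.9 TPM in cKO. The ligand genes were low, with Slit3 at 5.79 TPM in dKO and 7.83 TPM in cKO, Slit2 at 2.01 TPM in dKO and 0.863 TPM in cKO, and Slit1 at 1.04 TPM in dKO and 0.0743 TPM in cKO. Robo1 stood at 2.02 TPM in dKO and 1.97 TPM in cKO, Robo3 reached 10 TPM in 0 cells and Robo4 was listed at 0 in every cell. Robo2 was thus the main Robo gene of these cells by TPM.

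Of 10 genes around osteoprotegerin, 4 were measured and 0 were apart in either direction, with a median of -0.25. Both ligands that osteoprotegerin binds were near the floor in these cells. Tnfsf11, the RANKL gene, averaged 0.720 TPM in dKO and 0.0959 TPM in cKO and reached 10 TPM in 5 of 378 cells. Tnfsf10, the TRAIL gene, averaged 1.37 TPM in dKO and 0.484 TPM in cKO and reached 10 TPM in 10 cells. Of the receptor genes, Tnfrsf11a, for RANK, averaged 0.587 TPM in dKO and 0.881 TPM in cKO, and Tnfrsf10b, for a TRAIL receptor, 1.96 TPM in dKO and 2.14 TPM in cKO. The 2 highest members of the list were Tnfrsf22, a TRAIL decoy receptor gene, at 9.66 TPM in dKO and 13.8 TPM in cKO, and Traf6, an adaptor gene, at 8.34 TPM in dKO and 9.07 TPM in cKO.

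Of 24 genes of the actin system around Synpo2, 19 were measured, 0 were higher and 1 was lower in dKO, with a median of 0.14. The lower one was Actn1, a gene of α-actinin, at 20.3 TPM in dKO and 31.2 TPM in cKO. Synpo, the related synaptopodin gene, averaged 26.2 TPM in dKO and 22.6 TPM in cKO and was not apart, and Synpo2l reached 10 TPM in 0 cells. Bag3 averaged 10.6 TPM in dKO and 8.49 TPM in cKO. Of 15 genes around Gpnmb, 10 were measured, 1 was higher and 0 were lower in dKO, with a median of 0.04. The higher one was Cd44, a hyaluronan receptor gene, at 188 and 216 TPM on the dKO plates and 116.9, 133.1 and 131.99 TPM on the cKO plates. The MITF relatives Tfeb and Tfe3 averaged 4.04 and 9.34 TPM in dKO against 6.48 and 10.8 TPM in cKO, and were not apart.

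Among the markers of follicle and epidermal compartments, some stood apart between genotypes in the same Sca-1-negative cells. Of the 12 bulge markers 10 were measured, with 1 higher and 1 lower in dKO. Krt15, a keratin of bulge and basal cells, was 2.42-fold lower, at 233 TPM in dKO and 566 TPM in cKO, and Cd200, a surface glycoprotein gene, was 1.66-fold higher, at 42.6 TPM in dKO and 25.3 TPM in cKO. Of the 6 inner bulge and companion layer markers 3 were measured and 2 were higher in dKO. These were the keratin gene Krt16, at 21.9 TPM in dKO and 2.23 TPM in cKO, and Timp3, which encodes a metalloproteinase inhibitor, at 67.8 TPM in dKO and 40.6 TPM in cKO. Krt16 reached 10 TPM in 14 dKO and 7 cKO cells of this gate.

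All 8 upper follicle markers were measured, with 1 higher and 1 lower in dKO. The keratin gene Krt17 was 1.84-fold higher, at 814 TPM in dKO and 443 TPM in cKO, and Lgr6, a receptor gene of upper follicle cells, was 2.31-fold lower, at 7.53 TPM in dKO and 18.7 TPM in cKO. Of the 7 suprabasal markers 4 were measured and 1 was higher in dKO, Krtdap, at 183.9 TPM in dKO and 69.9 TPM in cKO. None of the 6 basal keratinocyte and 3 measured hair germ markers was apart. Of the immune list only Cd74 was measured, and it was lower in dKO, at 8.21 and 4.29 TPM by plate, against 27.01, 24.8 and 8.38 TPM on the cKO plates. The part of these markers in the values of the 4 genes was not tested.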

How the data were processed

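Single cells were sorted into 96-well plates, amplified by Smart-seq2, tagmented with Nextera XT and sequenced in paired-end mode, per the labels' protocols. The deposited table holds TPM for 384 cells. The submitters' processing notes name RSEM 1.2.30 and Bowtie2 2.2.9 and the mm10 (GRCm38) build, with no annotation release. RSEM assigns reads of similar genes by a model. Depth per cell is unknown, and copies made by amplification are not told apart.

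From the deposited TPM, cells with at least 1000 genes at 1 TPM were kept. Means were taken per plate, the number in the cell's title being read as the plate, and a genotype's value is the unweighted mean of its plates. Log2 ratios used a pseudocount of 1 TPM, so they are too small for low genes. A gene was called measured at a mean of 5 TPM or more over the plates (in gate and Cd34 comparisons, in the higher group). A cell was positive at 10 TPM. The intervals of shares are exact binomial ones (Clopper-Pearson, 95%). For a share of 0 the limit is 3 over the cell number. The number of cells expected with 2 genes is the product of their shares on a plate times its cells, summed over plates. The interval of a ratio is the exact interval of the share with both genes, over the expected share, which is held fixed. It does not test whether 2 genes are independent. Since no animal is named, a group was treated as 1 sample and no test was run.

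The 4 genes, the gene lists and the rules were chosen with earlier results of these data known. Of each list, members at least 1.5-fold apart were named, at most 3, or else the 2 with the highest TPM; other list members were named after their values were seen. For each gene the 3 most alike genes were named, leaving out predicted, mitochondrial, ribosomal protein and spike-in rows. The rule for genes apart between genotypes was run on simulated data. Changes larger than its thresholds were planted in genes more abundant than the 4, with cells shuffled over plates. That setting does not show how the rule works for low genes or where plates differ. Alternatives were other pseudocounts, cell filters, thresholds and scalings, removal of the highest cells or of cells with other types' markers, pooling, and leaving out each plate. Python 3.11.15, numpy 2.4.6, pandas 2.3.3, scipy 1.17.1 and matplotlib 3.10.9 were used.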

Additional observations from a re-analysis of the deposited data

How the results depend on the processing

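All log2 values here are of the quantity named, the first group over the second. Between genotypes in Sca-1-negative cells, every gene stayed higher in dKO under all 68 alternatives (17 per gene), with values from 0.78 to 2.93. The genes were chosen on this contrast in these cells, so the kept direction supports nothing, and only the sizes are described. A pseudocount of 10 TPM gave 0.97 for Robo2, 1.27 for Synpo2, 1.06 for Tnfrsf11b and 1.05 for Gpnmb. Differences of mean log2(TPM + 1) were 1.41 for Synpo2, 1.57 for Tnfrsf11b and 0.78 for Gpnmb. Without the highest 5% of cells the log2 ratios of mean TPM were 2.93 for Synpo2, 2.46 for Tnfrsf11b and 2.89 for Gpnmb. On the cKO plates that step removed 4, 3 and 4 cells, as many as were Gpnmb-positive there. Synpo2-positive cells numbered 6, 3 and 7 on the same plates. For Gpnmb and Synpo2 these larger values thus set dKO against cKO cells of which few or none stayed positive. Tnfrsf11b moved to 2.22 with the abundant rows removed, and Gpnmb to 2.62 in cells with 4000 to 6000 genes. Xist plates alone gave 1.01 for Robo2 and 2.54 for Synpo2, and Y plates alone 1.83 for Synpo2. Leaving out each plate gave 1.04 to 1.78 for Robo2, the lowest without dKO plate 2.

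By gate, direction held in all 48 alternatives. With pseudocounts of 0.1 and 10 TPM Tnfrsf11b stood at -4.86 and -1.50 in dKO and at -4.75 and -0.58 in cKO. A pseudocount of 10 TPM gave Robo2 -1.85 in dKO and -0.67 in cKO, and Gpnmb 0.90 in cKO. Differences of mean log2 were -2.56 and -0.63 for Robo2 and -2.18 and -0.55 for Tnfrsf11b, in dKO and in cKO. With the abundant rows removed Tnfrsf11b stood at -4.44 in dKO and -4.05 in cKO. Without the highest 5% of cells it was -0.91 in cKO, and Gpnmb 2.67 in cKO. On cKO plate 3 that step removed 4 Sca-1-negative cells, as many as were Gpnmb-positive in that gate. Between genotypes in Sca-1-positive cells Tnfrsf11b, which rests on 1 cell in each, ran from 0 to 1.82, the highest at a pseudocount of 0.1 TPM, and stood at 1.57 with the abundant rows removed.

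By Cd34, all alternatives but 2 kept the direction; the exceptions were Synpo2 in dKO without plate 1 (-0.38) and Robo2 in cKO without plate 3 (-0.099). Robo2 in dKO went to -0.011 with the abundant rows removed and to -0.019 with Cd34 split at 1 TPM. Synpo2 in dKO went to 1.11 and 1.86 under the same settings, to 0.80 without the highest 5% of cells and to 1.40 as a difference of mean log2. Synpo2 in cKO went to 0.78 at a pseudocount of 10 TPM, to 2.71 without the highest cells and to 1.04 as a difference of mean log2. Tnfrsf11b went to 0.47 in cKO at a pseudocount of 10 TPM, and to 1.64 in dKO as a difference of mean log2. Gpnmb in dKO went to 1.83 at 10 TPM, to 4.23 without the highest cells, to 2.32 as a difference of mean log2 and to 2.29 with Cd34 split at 50 TPM. Gpnmb in cKO went to 3.37 and 0.95 at pseudocounts of 0.1 and 10 TPM, to 1.78 without the highest cells, to 0.76 as a difference of mean log2 and to 2.16 with Cd34 split at 1 TPM. The step without the highest cells took away all 4 Gpnmb-positive Cd34-negative cells of dKO plate 1. On cKO plate 3 it took away the 1 Gpnmb-positive Cd34-positive cell and all 3 Gpnmb-positive Cd34-negative ones. Beyond these counts the cause of the moves was not tested. Of 78 alternatives for co-detection 72 lay within the counting interval and 71 kept their direction; Robo2 with Gpnmb stayed below 1 in all of its own, with 0.358 to 0.748 in dKO. Read depth is unknown, and the 41 Sca-1-positive cells limit every value of that gate. No paired analysis was possible because no result comes from a test; gates and Cd34 classes were compared within plates.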

Other observations

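Some genes that belong to other cell types were found more often in cells positive for Gpnmb, Synpo2 or Tnfrsf11b. They were picked after their values were seen and are given as values. Col1a1, which encodes a fibrillar collagen chain, was positive in 14 of 24 Gpnmb-positive dKO cells, 58.3% (36.6% to 77.9%), and in 16 of 130 Gpnmb-negative ones, 12.3% (7.20% to 19.2%). In cKO it was positive in 1 of 11 Gpnmb-positive cells and in 4.65% (2.03% to 8.96%) of Gpnmb-negative ones. Among Robo2-positive dKO cells Col1a1 was positive in 7 of 69, 10.1% (4.18% to 19.8%), and among Robo2-negative ones in 23 of 85, 27.06% (17.99% to 37.8%). The fibroblast genes Dcn and Lum reached 10 TPM in 0 cells of the table.

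Cspg4, the gene of the NG2 proteoglycan, was positive in 77.6% (63.4% to 88.2%) of Synpo2-positive and 36.2% (27.04% to 46.1%) of Synpo2-negative dKO cells. In cKO it was positive in 15 of 16 Synpo2-positive cells and in 43.7% (36.1% to 51.6%) of Synpo2-negative ones. It was positive in 20 of 24 Gpnmb-positive dKO cells but in 5 of 11 Gpnmb-positive cKO cells, 45.5% (16.7% to 76.6%). In the Sca-1-positive gate 0 of 13 Gpnmb-positive cells held a fibroblast or a smooth muscle and pericyte marker, Cspg4 and Col1a1 included.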
